A study of Homo sapiens with 6 samples.

Results

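The RNAs described here are natural antisense transcripts of H226 cells, a human line that the study names as lung squamous carcinoma. They were chosen by name and depth, as every row of the count table whose gene name ends in -AS with or without a number and that held at least 60 reads summed over the 6 libraries. This took 142 of 221 antisense rows, among 17222 gene rows in all, and left 79 below the minimum. DGUOK-AS1 and YTHDF3-AS1 lay just inside the minimum with 60 reads each, and TNRC6C-AS1 and LIFR-AS1 just outside it with 59 and 57. For each antisense row, the row named by the part of its name before -AS was taken as the sense gene. It was found for 123 of the 142, in 122 distinct rows, since PAXIP1-AS1 and PAXIP1-AS2 share PAXIP1.

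Antisense transcripts are made from the DNA strand opposite to a gene. Some run across the exons of that gene, some lie within its introns, and some start beside its promoter and run away from it, as divergent transcripts. Many are long noncoding RNAs of low abundance, and nuclear decay, with the exosome as a main enzyme complex, removes a large share of such RNAs. Single antisense RNAs are known to affect their sense gene in either direction, through the act of transcription, through chromatin or through pairing of the RNAs.

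The cells were transfected with a control oligonucleotide, ASO_CTRL, or with one that targets the long noncoding RNA SWINGN, ASO_LINC#3, and were collected after 48 h, with 3 libraries per condition. Both conditions share the cell line and the transient transfection, a single oligonucleotide stands for the knockdown, and SWINGN itself was not analysed here. The methods paragraph on this RNA-seq names BJ fibroblasts, while the labels and the study's results name H226, which is used here. The study describes its experiments in general as biological replicates, but the labels do not say whether these libraries came from separate cultures, and the p-values measure the spread between the libraries. In bulk RNA, a lower level in each cell and fewer cells that make an RNA cannot be told apart.

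Reads counted on genes ranged from 3686828 in ASO_LINC replicate 3 to 10546786 in ASO_CTRL replicate 3, and 59.5% of all reads came from the control libraries. The antisense rows held 0.222% of these reads. Of the squamous and basal markers TP63, KRT14, DSG3, SOX2, KRT5, KRT6A and SFN, only the last 3 had a row in the table used here. Their summed level was 143 to 164 CPM (edgeR's standard unit of reads on a gene relative to all reads on genes of the library, after TMM scaling) in ASO_CTRL and 118 to 168 CPM in ASO_LINC, but the rows went opposite ways, with KRT5 at 94.4 to 117 and then 62.6 to 77.8 CPM and SFN at 44.7 to 50.5 and then 54.1 to 89.2 CPM. The 8 markers of simple epithelium and mesothelium all had rows, and their summed level was 12405 to 13475 CPM in ASO_CTRL. In ASO_LINC it was 7693, 7312 and 12756 CPM in replicates 1, 2 and 3, and in this sum, most of it from KRT18, KRT7 and KRT19, replicate 3 stood with the control libraries. It did not for the mesothelial markers CALB2, at 516 to 698 CPM in ASO_CTRL and 119 to 208 CPM in ASO_LINC, and UPK3B, at 43.9 to 52.8 and 20.1 to 35.2 CPM. The 4 endothelial markers had no row, and of the leukocyte markers CD14 and CD68 did. In every library the squamous and basal sum was far below that of simple epithelium and mesothelium. These lists thus do not bear out the squamous name.

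Summed over the 6 libraries, the antisense rows held from 60 to 20612 reads, with a median of 181, and 36 of them had fewer than 100. In ASO_CTRL their mean levels ran from 0.73 to 534 CPM, with a median of 4.43 CPM. The 10 rows with the most reads held 58.3% of all antisense reads. The largest of them, C17orf76-AS1, which the annotation used here lists as SNHG29, a host of small nucleolar RNAs, held 23.1%. A row had fewer reads than its sense row in 107 of 123 pairs and more in 16, as counted and not per length. The control libraries alone supplied 60 reads in 109 of the 142 rows and the knockdown libraries alone in 85. Of the 142 rows 139 passed edgeR's filter on low counts and were tested, and CDKN2B-AS1, USP3-AS1 and PARD3-AS1 did not pass it.

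Genes were placed on a GENCODE annotation for GRCh37, the build of hg19 to which the reads were aligned. Of the 142 names, 102 matched it directly and 40 through an older name, and 25 of the genes are now named as divergent transcripts. It lists 133 of them as long noncoding RNAs, 5 as protein-coding genes and 3 as pseudogenes, and the name HNRNPU-AS1 leads to HNRNPU itself. The exons of antisense and sense gene overlapped on opposite strands in 93 pairs, in which a median of 6.7% of the antisense exon bases lay opposite sense exons. In 18 further pairs the gene bodies overlapped but the exons did not. The other 28 placed pairs were divergent, with no overlap and starts 17 to 442 bp apart (median 94.5 bp), and 3 pairs were not placed. Whether the authors counted reads by strand is not given in the sources used here, so reads from overlapping exons could not be assigned to one strand with certainty.

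The starts of 3 antisense RNAs that passed the thresholds are given here, since one of them is shared with a sense gene that moved with its partner. These are the RefSeq windows of GRCh38.p14 from 250 bases before to 50 bases after the start, written 5′ to 3′ on the strand of the antisense RNA. The window of UBA6-AS1, listed by RefSeq as UBA6-DT, lies at chr4:67701028-67701327 on the plus strand. UBA6 starts on the other strand 123 bases from it, and the windows of the pair share 222 bases. That of ZBED5-AS1 lies at chr11:10857967-10858266 on the plus strand. That of C1QTNF1-AS1 lies at chr17:79027606-79027905 on the minus strand and held none of the letters searched. Capitals mark GCGTG in the first sequence and CCAAT in the second.
UBA6-AS1: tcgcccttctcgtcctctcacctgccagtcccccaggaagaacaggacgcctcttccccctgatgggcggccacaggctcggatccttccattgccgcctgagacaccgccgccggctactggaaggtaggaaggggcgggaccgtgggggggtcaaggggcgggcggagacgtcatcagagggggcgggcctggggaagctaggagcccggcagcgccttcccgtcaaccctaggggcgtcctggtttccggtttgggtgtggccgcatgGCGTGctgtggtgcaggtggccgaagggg
ZBED5-AS1: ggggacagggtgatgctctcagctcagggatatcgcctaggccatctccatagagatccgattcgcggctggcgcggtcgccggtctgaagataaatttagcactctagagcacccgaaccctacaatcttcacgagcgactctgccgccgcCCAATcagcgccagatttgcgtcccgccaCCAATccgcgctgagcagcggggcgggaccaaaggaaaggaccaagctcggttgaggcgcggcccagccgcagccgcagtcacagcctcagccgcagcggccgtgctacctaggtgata
C1QTNF1-AS1: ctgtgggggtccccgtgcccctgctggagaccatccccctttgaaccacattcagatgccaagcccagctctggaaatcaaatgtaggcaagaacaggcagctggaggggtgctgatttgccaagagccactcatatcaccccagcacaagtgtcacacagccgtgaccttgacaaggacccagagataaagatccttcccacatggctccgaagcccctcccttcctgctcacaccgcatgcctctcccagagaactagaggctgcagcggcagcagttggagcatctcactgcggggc

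RefSeq windows were found for 116 of the 142 antisense RNAs. The core letters bound by hypoxia-inducible factors, ACGTG or GCGTG on either strand, stood in 86 of these windows (74.1%), in 66.3% of 101 windows of the sense genes and in 48.4% of all 27305 windows. The windows also differed in base composition, with a median GC content of 67.5% for the antisense RNAs, 68.0% for the sense genes and 58.3% for all, and the part of GC content in the share of matches was not tested. The AP-1 letters TGANTCA were found in 8.6% of antisense windows and 7.8% of all, and the CRE letters TGACGTCA in 1.7% and 2.0%. CCAAT stood in 34.5% against 35.7%, and the TATA letters TATAAA in 4.3% against 12.0%. In the windows of the sense genes the share was 5.9% for the AP-1, CRE and TATA letters alike and 30.7% for CCAAT. Both strands were searched for each, and the cores ACGTG and GCGTG share their last letters. A match describes letters in a window and not a bound site.

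After knockdown 5 of the 139 tested antisense rows passed both thresholds, an adjusted p below 0.01 in the quasi-likelihood test of edgeR and a log2 fold change beyond 0.5. This was 3.6%, beside 7.54% of all 14660 genes tested. C1QTNF1-AS1, UBA6-AS1 and ITGB2-AS1 rose (2.16% of the rows, beside 4.91% of all genes), and ZFHX4-AS1 and ZBED5-AS1 fell (1.44%, beside 2.63%). The share of calls also moved with depth. Among the 4287 genes with as many reads as the middle 50% of the antisense rows, 103 to 430.5, 5.13% passed, and of the 70 antisense rows in that range 3 did (4.29%). DESeq2 called 7 antisense rows and limma-voom 6, all 5 among them. Over all 14660 genes DESeq2 called 1597 and limma-voom 1213. With the adjusted p bound at 0.05, 15.8% of the antisense rows and 16.8% of all genes passed.

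**Figure D1:**
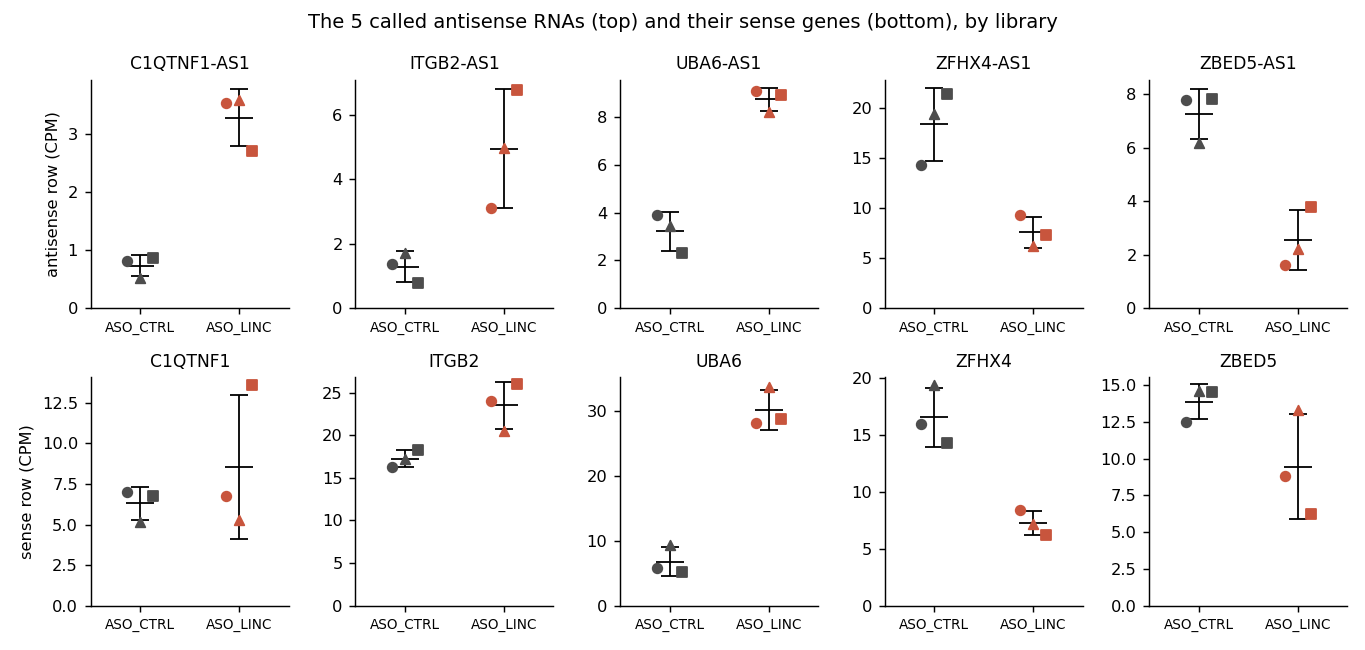
CPM of the 5 antisense RNAs past both thresholds (top row) and of their sense genes (bottom row) in ASO_CTRL (grey) and ASO_LINC (red). Circles, triangles and squares are replicates 1, 2 and 3, and bars give the mean and SD of 3 libraries. In each top panel the conditions do not overlap, while below the conditions overlap for C1QTNF1 and ZBED5.

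C1QTNF1-AS1 lies opposite C1QTNF1, which encodes a secreted protein of the C1q and tumour necrosis factor family. It is annotated on chromosome 17 of GRCh37 from 77014213 to 77023755 on the minus strand, without exon overlap. It had 0.81, 0.52 and 0.86 CPM in the 3 control libraries, from 6, 3 and 9 reads, and 3.53, 3.59 and 2.71 CPM in the knockdown libraries, from 24, 21 and 10 reads. All knockdown libraries lay above all control libraries, and the means were 0.73 ± 0.19 and 3.28 ± 0.49 CPM (SD, n = 3 in each condition). This was a log2 fold change of 2.12 (SE, standard error, 0.34, edgeR adjusted p = 0.00237). C1QTNF1 itself had 6.31 ± 1.00 and 8.54 ± 4.4 CPM, with a single high library, ASO_LINC replicate 3 at 13.6 CPM, and a log2 fold change of 0.36 (adjusted p = 0.481).

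UBA6-AS1 and UBA6, which share the start region printed above, both rose. UBA6 is an activating enzyme of the ubiquitin pathway. The antisense gene is annotated on chromosome 4 of GRCh37 from 68566927 to 68946670 on the plus strand, and its start is 54 bp from that of UBA6 in this annotation. UBA6-AS1 had 3.91, 3.44 and 2.29 CPM in ASO_CTRL and 9.11, 8.21 and 8.95 CPM in ASO_LINC, a log2 fold change of 1.47 (SE 0.25, edgeR adjusted p = 0.00324). UBA6 had 5.79, 9.29 and 5.25 CPM in the controls and 28.1, 33.7 and 28.7 CPM after knockdown, a log2 fold change of 2.19 (adjusted p = 0.000162). Neither row overlapped between the conditions. The log2 ratio of antisense to sense row went from −1.0 ± 0.42 to −1.75 ± 0.22 (SD, n = 3 in each condition), also without overlap. The exact permutation test of this ratio, two-sided, gave p = 0.1, the smallest that 3 libraries against 3 allow. Exons of UBA6-AS1 also lie opposite coding-gene exons over 82 bases.

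ITGB2-AS1 lies opposite ITGB2, the beta subunit of the leukocyte integrins, on chromosome 21 from 46340966 to 46349595 on the plus strand. Their exons overlap over 303 bases. ITGB2-AS1 had 1.35, 1.72 and 0.76 CPM in ASO_CTRL and 3.09, 4.96 and 6.78 CPM in ASO_LINC, so that all knockdown libraries were higher. The log2 fold change was 1.96 (SE 0.40, edgeR adjusted p = 0.00785). ITGB2 had 17.3 ± 1.01 and 23.5 ± 2.77 CPM (SD, n = 3 in each condition) and a log2 fold change of 0.44 that did not pass (adjusted p = 0.0851). Of the leukocyte markers, CD68 had 1.08 to 1.89 CPM in ASO_CTRL and 2.79 to 6.51 CPM in ASO_LINC, whereas CD14 overlapped, at 1.48 to 2.10 and 0.74 to 2.17 CPM. Their sum was 2.56 to 3.61 and 3.53 to 8.68 CPM, and its part in the ITGB2-AS1 difference was not tested. PTPRC and CD3E, which mark leukocytes more broadly and T cells, had no row.

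ZFHX4-AS1 and ZFHX4, a gene of chromosome 8 for a transcription factor with zinc fingers and homeodomains, both fell. ZFHX4-AS1 had 14.3, 19.4 and 21.4 CPM in the controls and 9.26, 6.16 and 7.32 CPM after knockdown, a log2 fold change of −1.27 (SE 0.23, edgeR adjusted p = 0.00417). ZFHX4 had 16, 19.4 and 14.3 CPM in the controls and 8.38, 7.19 and 6.24 CPM after knockdown, a log2 fold change of −1.16 (adjusted p = 0.0038). Each row was lower in every knockdown library than in every control library. The ratio of the rows overlapped between the conditions, with a mean log2 ratio of 0.14 ± 0.38 in ASO_CTRL and 0.05 ± 0.23 in ASO_LINC (SD, n = 3 in each). The gene bodies overlap and the exons do not.

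ZBED5-AS1, on chromosome 11 from 10879726 to 10930519 on the plus strand, had 7.81, 6.19 and 7.82 CPM in ASO_CTRL and 1.62, 2.22 and 3.80 CPM in ASO_LINC. It fell by 1.61 on the log2 scale (SE 0.30, edgeR adjusted p = 0.00536), and replicate 3 was the knockdown library nearest to the controls. ZBED5, a zinc finger gene derived from a DNA transposon, had 13.9 ± 1.18 and 9.47 ± 3.60 CPM (SD, n = 3 in each condition), with overlapping conditions and a log2 fold change of −0.52 (adjusted p = 0.172). The exons overlap over 618 bases, 12.5% of the exon bases of ZBED5-AS1.

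None of the 5 calls held in all 6 fits that left out 1 library. UBA6-AS1 kept its call in 3 of them, ITGB2-AS1 and ZFHX4-AS1 in 2, and C1QTNF1-AS1 and ZBED5-AS1 in 1. Without ASO_CTRL replicate 2 or 3, 0 rows passed in edgeR's test, with 43 and 31 at an unadjusted p under 0.05, and without ASO_CTRL replicate 1, ASO_LINC replicate 1 or ASO_LINC replicate 2 there were 2, 1 and 1. Fewer of all genes passed as well, 505 of 15211 without ASO_CTRL replicate 2 and 359 of 14854 without ASO_CTRL replicate 3. The other fits, in the order given, had 493 of 14862, 425 of 14801 and 531 of 15158, against 1106 of 14660 with all libraries. Without ASO_LINC replicate 3 there were 13 antisense rows, 5 higher and 8 lower, which is 9.15% of 142 tested rows beside 17.2% of all genes tested in that fit. These 13 were all 5 named above, MAGI2-AS3, GAS6-AS2 and ZNF503-AS2, whose values follow, and HOXA-AS2, FLG-AS1, RASAL2-AS1, SBF2-AS1 and TRAM2-AS1, which were picked out after their values were seen. Without that library the log2 fold change of HOXA-AS2 was −0.77 and that of FLG-AS1 −3.11, against −0.55 and −2.16 over all libraries.

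**Figure D2:**
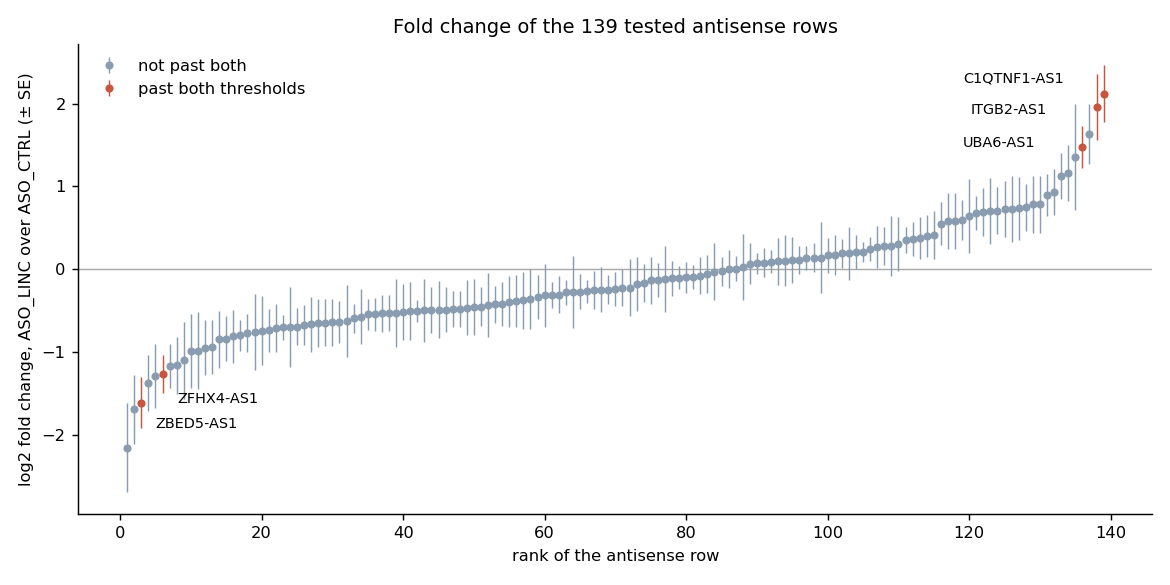
Log2 fold change of the 139 tested antisense rows, ranked from lowest to highest, with standard errors from edgeR (vertical lines). Red points passed both thresholds. The range is −2.16 to 2.12, and 86 of the 139 points lie below 0.

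Most antisense rows had lower values after knockdown without passing the test. Of 139 log2 fold changes 86 were below 0 (61.9%, beside 50.3% of all genes tested), and the median was −0.24, beside −0.003 for all genes. The medians of the changes in the single knockdown libraries were −0.21, −0.20 and −0.15. For 51 antisense rows (36.7%) the conditions did not overlap, and the share among all genes was 36.1%. Of the 51 rows 35 were lower and 16 higher, and this split was not counted for all genes. Of the 68 rows with more reads than the median 44 were below 0, with a median of −0.15, and of the 71 others 42 were, with a median of −0.32. The 14542 tested genes with at least 60 reads had a median of −0.005. Genes with as many reads as the middle 50% of the antisense rows had a median of −0.03, and the antisense rows in that range −0.18. Control reads alone met the minimum of 60 in 109 of the 142 rows and knockdown reads alone in 85. The part of this rule in the lower values was not tested. The median standard error was 0.28 for the antisense rows and 0.20 for all genes. These medians and counts describe the rows, and no test of them was made.

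The 10 antisense rows with the most reads had log2 fold changes between −0.70 and 0.21. In edgeR's test 0 of the 10 passed both thresholds and 2 had an unadjusted p under 0.05, and in DESeq2 and in limma-voom 1 passed, MAGI2-AS3. C17orf76-AS1 had 493, 554 and 554 CPM in ASO_CTRL and 468, 445 and 580 CPM in ASO_LINC, with overlapping conditions. FGD5-AS1 had 180 ± 8.43 and 191 ± 28 CPM (SD, n = 3 in each condition, as for the other means of this paragraph). LOXL1-AS1 had 70.1 ± 5.28 and 73.4 ± 4.62 CPM, while LOXL1, which encodes an enzyme that crosslinks elastin, had 140 ± 10.3 and 84.2 ± 26.1 CPM (edgeR adjusted p = 0.0235). NCBP2-AS2, THAP9-AS1 and GATA6-AS1, with log2 fold changes of −0.25, 0.13 and −0.09, overlapped between the conditions as well.

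In the other 4 of these rows the conditions did not overlap. EPB41L4A-AS1 was higher in the knockdown libraries, at 131, 137 and 117 CPM against 105, 112 and 116 CPM, and MMP24-AS1 was lower, at 47.2, 45.2 and 43.6 CPM against 49.6, 61.6 and 53.0 CPM. GABPB1-AS1, beside the gene of a subunit of the transcription factor GABP, had 149, 155 and 177 CPM in the controls and 118, 122 and 98.4 CPM after knockdown, a log2 fold change of −0.51 (edgeR adjusted p = 0.0276). GABPB1 itself had 15.1 ± 0.40 and 16.2 ± 1.78 CPM (SD, n = 3 in each condition). MAGI2-AS3 had 58.7, 57.5 and 60 CPM in the controls and 34.2, 31.1 and 43.6 CPM after knockdown, and its log2 fold change of −0.70 missed the threshold with an adjusted p of 0.0104. MAGI2, which encodes a scaffold protein of cell junctions, had 4.52 ± 0.56 and 4.11 ± 0.60 CPM.

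Among antisense RNAs of sense genes tied to the study, GAS6-AS2 starts 36 bp from GAS6, the gene of a ligand of the TAM receptor kinases on the chromosome of SWINGN, and runs away from it. GAS6-AS2 had 14.3, 16.2 and 15.5 CPM in ASO_CTRL and 7.64, 8.56 and 10.6 CPM in ASO_LINC, a log2 fold change of −0.80 (edgeR adjusted p = 0.0155) that was beyond the fold bound only. GAS6 had 316, 268 and 279 CPM in the controls and 164, 168 and 242 CPM after knockdown. Its log2 fold change of −0.59 did not pass either (edgeR adjusted p = 0.0307). Both rows were lower in every knockdown library than in every control library, and in both replicate 3 was the highest of the 3 knockdown libraries. The log2 ratio of GAS6-AS2 to GAS6 was −4.20 ± 0.21 and −4.37 ± 0.11 (SD, n = 3 in each condition, two-sided exact permutation p = 0.3). The study itself counts GAS6 among its genes with altered expression after SWINGN knockdown. It also reports lower GAS6 by RT-qPCR and western blot in H226 cells, and altered GAS6-AS2 expression in BJ fibroblasts.

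ZNF503-AS2, whose start is 245 bp from that of the zinc finger gene ZNF503 and whose exons overlap it over 246 bases, had 8.08, 13.9 and 10.6 CPM in the controls and 4.26, 4.45 and 5.96 CPM after knockdown. Its log2 fold change of −1.17 had an adjusted p of 0.0121 in edgeR. ZNF503 had 50.6, 49.0 and 53.3 CPM against 38.9, 34.4 and 28.2 CPM, a log2 fold change of −0.58 (adjusted p = 0.0227). In both rows the conditions did not overlap, and neither passed. TPT1-AS1, which starts 61 bp from TPT1, the gene of the translationally controlled tumour protein, had 12.7 ± 1.2 and 14.0 ± 0.95 CPM (SD, n = 3 in each condition) with overlapping conditions.

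The sense rows served as the reference. Of 118 tested, 11 passed both thresholds (9.32%, beside 7.54% of all genes), 9 higher and 2 lower, and the median log2 fold change was −0.01 with 59 rows on each side of 0. UBA6 rose and ZFHX4 fell, as given above. FAM13A also rose, by 1.98 on the log2 scale, MAFG by 1.14, ZEB1 by 1.08, RASSF8 by 0.98 and NR2F2 by 0.89. So did VIM by 0.83, TRAM2 by 0.81 and PXN by 0.62, and ZNRD1 fell by 0.71. FAM13A, ZEB1, NR2F2, VIM, TRAM2 and ZNRD1 are named because they passed, after their values were seen. ZEB1 is a repressor of epithelial genes, NR2F2 a nuclear receptor and VIM the intermediate filament protein vimentin. The antisense rows of these 11 had the same sign as the sense row in 8 and the opposite sign in 3, MAFG-AS1, RASSF8-AS1 and PXN-AS1. Without ASO_LINC replicate 3 there were 22 sense rows past both thresholds, and without another library 2 or 3. Over all genes, 2616 of 15176 passed without ASO_LINC replicate 3, and 359 to 531 without another library.

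FAM13A-AS1 came nearest to a call among the antisense rows of the other sense genes that rose. It had 0.94, 0.86 and 0.86 CPM in ASO_CTRL, from 7, 5 and 9 reads, and 2.79, 2.05 and 3.80 CPM in ASO_LINC, with a log2 fold change of 1.64 (edgeR adjusted p = 0.0117). FAM13A had 0.81, 0.86 and 0.67 CPM against 3.09, 2.91 and 3.25 CPM, and the conditions overlapped in neither row. Like the sense genes, these antisense rows were picked out after their values were seen. ZEB1-AS1 had a log2 fold change of 0.75 (adjusted p = 0.0927), NR2F2-AS1 of 0.73 (adjusted p = 0.245), TRAM2-AS1 of 0.55 (adjusted p = 0.166) and VIM-AS1 of 0.31 (adjusted p = 0.556).

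**Figure D3:**
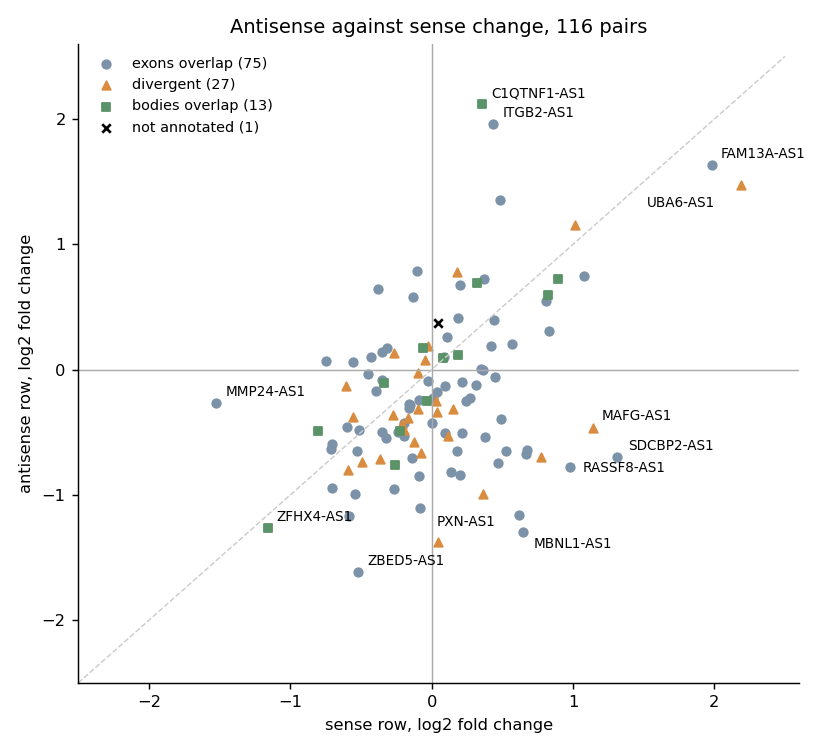
Log2 fold change of the antisense row (vertical axis) against that of its sense row (horizontal axis) for the 116 pairs with both rows tested, by position of the genes. The dashed line marks equal change. UBA6-AS1 and FAM13A-AS1 lie at the upper right below the line, with FAM13A-AS1 the nearer to it. RASSF8-AS1, MAFG-AS1 and SDCBP2-AS1 lie below 0 while their sense rows lie above 0.

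Over the 116 pairs with both rows tested, the log2 fold changes had the same sign in 71 (61.2%) and opposite signs in 45. Both rows were lower in 46 pairs and both higher in 25, the antisense row was lower and the sense row higher in 33, and the reverse was found in 12. Both rows passed the thresholds in 2 pairs, UBA6 and ZFHX4, the antisense row alone in 3, the sense row alone in 9 and neither in 102. Across pairs, which share the 6 libraries and are not independent replicates, the Pearson r was 0.41 and the Spearman rho 0.28, and without the 2 pairs called on both sides they were 0.33 and 0.25. Where exons overlap and strand was not used, reads of one gene could also count for the other. The median difference, antisense minus sense, was −0.23 on the log2 scale.

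**Figure D4:**
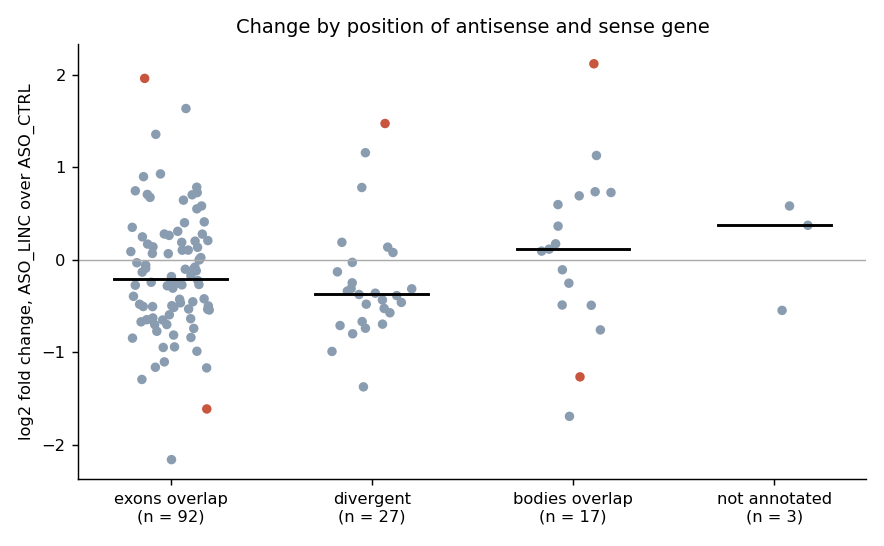
Log2 fold change of the tested antisense rows by position of the antisense and sense genes in the annotation. Each point is a row, red points passed both thresholds, and horizontal lines are medians, at −0.20 for overlapping exons, −0.38 for divergent pairs and 0.11 for overlapping bodies.

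By position, the 27 tested divergent RNAs had a median log2 fold change of −0.38, and 21 of them were below 0. UBA6-AS1 was the single one past both thresholds. Their sense genes had a median of −0.08, and in 13 of the 27 divergent pairs both rows were lower, in 8 only the antisense row, in 3 only the sense row and in 3 neither. The 92 tested RNAs with overlapping exons had a median of −0.20, with 57 below 0, and ITGB2-AS1 and ZBED5-AS1 among them passed. The 17 with overlapping bodies but not exons had a median of 0.11, with 7 below 0, and C1QTNF1-AS1 and ZFHX4-AS1 passed. Antisense and sense row had the same sign in 16 of 27 divergent pairs (Pearson r 0.54 across pairs), in 42 of 75 pairs with overlapping exons (r 0.30) and in 12 of 13 pairs with overlapping bodies (r 0.75). The divergent pairs include UBA6, with log2 fold changes of 1.47 and 2.19, and those with overlapping bodies include ZFHX4, with −1.27 and −1.16. Both rows of these pairs were called, and r by class was not computed without them. The difference between these classes was not tested.

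Some pairs moved apart. The 5 pairs in which the antisense row changed most below its sense row were SDCBP2-AS1, MBNL1-AS1, PXN-AS1, RASSF8-AS1 and MAFG-AS1, with differences in log2 fold change of −2.01, −1.94, −1.78, −1.75 and −1.60. They were chosen for this difference, which is therefore given as a description. In all 5 the log2 ratio of antisense to sense row was lower in every knockdown library than in every control library. The exact permutation p of this ratio was 0.1 in each, two-sided. Since the choice used this difference, neither value is separate support. Over all 116 pairs the ratio did not overlap between the conditions in 31 (26.7%), 23 of them lower. Over all 116 pairs the smallest such p was 0.1, which is 0.374 after Benjamini-Hochberg adjustment.

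RASSF8-AS1, beside the gene of a Ras association domain protein, had 9.16, 12.6 and 8.68 CPM in the controls and 6.32, 5.48 and 5.69 CPM after knockdown, while RASSF8 had 7.14, 5.33 and 7.73 CPM and then 12.2, 13.3 and 15.2 CPM. The order of the rows was thus reversed, from a log2 ratio of 0.57 ± 0.55 to −1.18 ± 0.23 (SD, n = 3 in each condition). The adjusted p was 0.0371 for RASSF8-AS1 and 0.00921 for RASSF8, both from edgeR. PXN encodes paxillin, an adaptor of focal adhesions. PXN-AS1 had 3.23, 2.58 and 2.96 CPM in ASO_CTRL and 0.88, 1.37 and 1.90 CPM in ASO_LINC (log2 fold change −1.16, adjusted p = 0.041), against 254, 224 and 241 CPM and then 367, 357 and 381 CPM for PXN. Their exons overlap over 37.8% of the exon bases of PXN-AS1.

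MAFG is a small Maf transcription factor, and MAFG-AS1 starts 94 bp from it in the divergent direction. MAFG had 43.4, 51.8 and 46.6 CPM in the controls and 100, 105 and 107 CPM after knockdown (edgeR adjusted p = 0.0003). MAFG-AS1 had 4.44, 4.47 and 4.96 CPM and then 2.35, 2.57 and 5.96 CPM, so the conditions overlapped through ASO_LINC replicate 3. Its log2 fold change of −0.46 did not pass (adjusted p = 0.382), and the log2 ratio went from −3.27 ± 0.16 to −4.85 ± 0.65 (SD, n = 3 in each condition). MAFG-AS1 and UBA6-AS1 are thus both divergent from a sense gene that rose, and differed in sign.

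MBNL1-AS1, opposite the gene of the splicing regulator muscleblind-like 1, had 2.69, 2.41 and 1.81 CPM in ASO_CTRL and 1.03, 1.03 and 0.54 CPM in ASO_LINC, from 7, 6 and 2 reads. The conditions did not overlap, and the log2 fold change was −1.30 (edgeR adjusted p = 0.0401). MBNL1 had 17.0 ± 1.83 and 26.2 ± 7.13 CPM (SD, n = 3 in each condition, adjusted p = 0.0554). SDCBP2-AS1, opposite the gene of syntenin-2, had 2.56, 0.86 and 1.91 CPM and then 0.74, 1.03 and 1.90 CPM, with overlapping conditions, and SDCBP2 had 2.01 ± 0.75 and 5.08 ± 0.78 CPM (adjusted p = 0.0157). Neither gene of either pair passed.

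**Figure D5:**
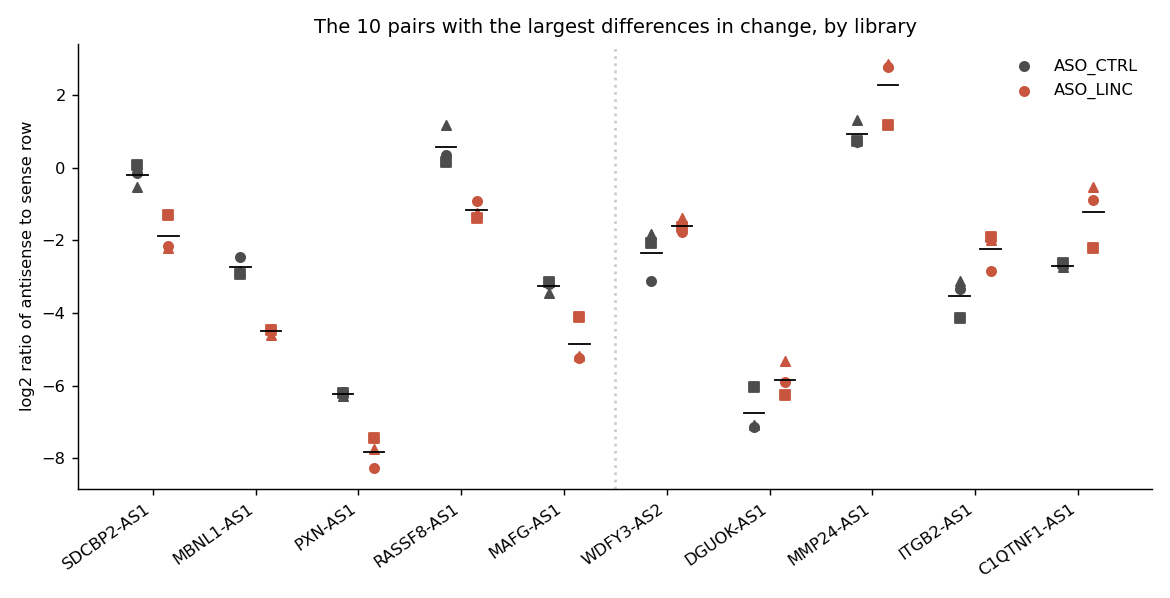
Log2 ratio of the antisense row to its sense row in each library for the 10 pairs with the largest differences in change, 5 in which the antisense row changed below the sense row (left of the dotted line) and 5 above it (right). Grey is ASO_CTRL, red is ASO_LINC, symbols are replicates and horizontal bars are means of 3 libraries. The conditions overlap for MMP24-AS1 and DGUOK-AS1.

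The 5 pairs with the largest difference the other way were C1QTNF1-AS1, ITGB2-AS1, MMP24-AS1, DGUOK-AS1 and WDFY3-AS2, with differences of 1.76, 1.53, 1.26, 1.03 and 0.89 on the log2 scale. In the pair of MMP24-AS1 the difference lay in the sense row. MMP24, a membrane-bound metalloproteinase gene, had 29.9, 24.6 and 31.4 CPM in the controls and 6.61, 5.99 and 19.2 CPM after knockdown (log2 fold change −1.53, edgeR adjusted p = 0.0147), with replicate 3 nearest to the controls. The annotation lists MMP24-AS1 itself as a protein-coding gene. DGUOK-AS1, opposite the gene of mitochondrial deoxyguanosine kinase, had 4 to 18 reads per library and overlapping conditions. WDFY3-AS2, beside the gene of an adaptor protein of autophagy, had 0.94, 1.72 and 1.24 CPM and then 2.06, 2.4 and 2.17 CPM, without overlap (log2 fold change 0.78, adjusted p = 0.144).

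Genes of RNA decay, which remove antisense and promoter-derived RNAs, were described from a list of exosome subunits, their cofactors, other nucleases and cap-binding factors. One entry of the list, MPP6, is used in annotations for a membrane guanylate kinase as well as for an exosome cofactor and was set aside. Of the other 29 genes, all tested, 0 rose and 1 fell, beside 4.91% and 2.63% of all genes. At an unadjusted p under 0.05 there were 5 higher and 4 lower by the same edgeR test, and DESeq2 and limma-voom also gave 0 that rose and 1 that fell. EXOSC7, a subunit of the exosome core, had 27.2, 35.6 and 29.1 CPM in ASO_CTRL and 12.8, 15.7 and 17.9 CPM in ASO_LINC, a log2 fold change of −1.0 (SE 0.18, edgeR adjusted p = 0.0047). The 29 log2 fold changes had a median of 0.03, with 16 above 0 and 13 below. MPP6 fell by 0.75 on the log2 scale (adjusted p = 0.00857), and MPHOSPH6, the unambiguous symbol of the cofactor, which was looked up after these values were seen, had a log2 fold change of 0.15 (adjusted p = 0.555).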

How the data were processed

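RNA-seq libraries of H226 cells, 3 for ASO_CTRL and 3 for ASO_LINC, were grouped by the sample labels. The authors mapped reads with STAR (hg19), and the deposited table holds their raw counts for each gene name in each library, not normalized. Which tool and annotation were used for counting, and whether strand was used, is not given in the sources used here, and first-strand cDNA was primed with dT oligonucleotides. Reads assigned to no gene made up 24.8% to 28.1% of each library and stayed out of library sizes and tests. Counts on genes per library ranged from 3686828 to 10546786, and the common biological coefficient of variation was 0.159.

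In R 4.3.3, edgeR 4.0.16 was used with filterByExpr, TMM scaling and the quasi-likelihood F-test over all genes kept, with Benjamini-Hochberg adjustment over these 14660 genes and no block for the replicate number. Calls needed an adjusted p below 0.01 and a log2 fold change beyond 0.5, the thresholds of the study's methods. Log2 ratios of antisense to sense row used a prior count of 2. The rule for rows named in the text took those called, the 10 with the most reads, the 5 pairs with the largest difference in each direction and the antisense rows of 7 sense genes tied to the study, of which 3 had one, and other rows described with values were picked out after these were seen. The members, the lists and the sense genes were chosen with earlier results of these data known. Positions came from GENCODE on GRCh37, in a release that may differ from the authors' own, and promoter windows from RefSeq on GRCh38.p14. Alternatives were DESeq2 1.42.0, limma-voom (limma 3.58.1), other scalings and filters, glmTreat, an adjusted p of 0.05, the replicate number as a block, and leaving out each library. SWINGN was not analysed here, and 1 marker gene is not reported here.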

Additional observations from a re-analysis of the deposited data

How the results depend on the processing

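With 5 antisense rows, 11 sense rows and 2 pairs past both thresholds in the main comparison, a filter of at least 10 reads in every library left 3 antisense rows, and edgeR's test against a fold bound (glmTreat) left 1 antisense row, 3 sense rows and 0 pairs. Of all genes, 1106 of 14660 passed in the main comparison, 917 of 12742 with that filter and 384 of 14660 by glmTreat. An adjusted p of 0.05 gave 22 antisense rows, 21 sense rows and 6 pairs, and 16.8% of all genes. Leaving out each library in turn gave 0 to 13 antisense rows, 2 to 22 sense rows and 0 to 4 pairs, with the highest of each without ASO_LINC replicate 3, the library with the fewest reads. Calls over all genes ran from 359 of 14854 without ASO_CTRL replicate 3 to 2616 of 15176 without ASO_LINC replicate 3. The counts under DESeq2, limma-voom, other scalings and no filter lay within 1.5 times the main ones. Of 365 single values, under the alternatives, of the 25 antisense rows that the naming rule took, 324 kept direction and side of the threshold, 28 lost a call, 13 gained one and 0 changed direction. The median of all tested antisense rows stayed below 0 in every setting, from −0.26 to −0.11, the latter with at least 10 reads in every library.

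With the replicate number as a block, 2 antisense rows, 6 sense rows and 1 pair passed, beside 656 of all 14660 genes tested. Deviations of same-numbered libraries from their group means correlated at 0.06, −0.15 and −0.18, and those of differently numbered libraries at −0.14 to 0.19. With 3 libraries per condition, these correlations cannot decide whether the numbers pair the libraries. The antisense rows had a median standard error of 0.28 on the log2 scale, beside 0.20 for all genes, and 36 of them had fewer than 100 reads in all. Of the 68 tested rows with more reads than the median 3 were called, and of the 71 others 2.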
